A study of Homo sapiens with 4 samples.

Results

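The S100 genes encode a family of small calcium-binding proteins, and 21 of the 19970 genes in the deposited table carry an S100 symbol. The 9 genes S100A2, S100A4, S100A6, S100A10, S100A11, S100A13, S100A14, S100A16 and S100P were chosen by gene name, and all 9 passed the filter on low counts. They were measured by RNA sequencing in COLO205, an established line from a human colon adenocarcinoma. The control group was 2 samples given the solvent DMSO, and the NP group was 2 samples given nonylphenol (NP, an alkylphenol with estrogenic activity) at 1 µM, both for 24 h. All 4 samples are of this line, so the comparison covers 1 cell background. The sequencing asked which genes differ in colorectal cancer cells after exposure to NP. Whether replicate samples were grown as separate cultures is not given in the sources used here, so a p-value here speaks only of the spread among these 4 samples, and that spread may be technical.

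An S100 protein is usually a dimer in which each chain has a pair of EF-hands, helix-loop-helix motifs whose loop holds a calcium ion. Calcium opens a surface that grips target proteins such as annexins, myosin and ezrin, and several members are also released from cells and bind the receptor AGER. Many members lie side by side on the long arm of chromosome 1 in a stretch called the epidermal differentiation complex, while S100P lies alone on chromosome 4. S100P, S100A4 and S100A6 are best known in colorectal cancer for raised levels and for links to motility.

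The calcium loop of the C-terminal EF-hand is the part of these proteins that is most alike between members, and its coding sequence is shown to make visible what joins the 9 genes and which 2 of them depart from it. Each stretch has 36 bases, 12 codons read 5′ to 3′ on the gene's strand within 1 exon, at GRCh38 positions of GENCODE release 29. Capitals mark codons 1, 3, 5 and 12 of the loop, the places where an EF-hand of this kind carries an acidic or polar residue for calcium. The pattern used here asked for aspartate at codon 1, aspartate, asparagine or serine at codons 3 and 5, and glutamate at codon 12.
S100P, plus strand, chr4:6696938-6696973: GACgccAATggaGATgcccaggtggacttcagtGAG
S100A6, minus strand, chr1:153534753-153534788: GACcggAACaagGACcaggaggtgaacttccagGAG
S100A11, minus strand, chr1:152032743-152032778: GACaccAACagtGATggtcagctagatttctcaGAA
S100A4, minus strand, chr1:153543843-153543878: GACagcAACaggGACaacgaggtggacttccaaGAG
S100A2, minus strand, chr1:153561511-153561546: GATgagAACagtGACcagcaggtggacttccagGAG
S100A13, minus strand, chr1:153618967-153619002: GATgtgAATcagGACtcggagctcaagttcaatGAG
S100A16, minus strand, chr1:153607612-153607647: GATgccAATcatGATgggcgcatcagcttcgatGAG
S100A10, minus strand, chr1:151983244-151983279: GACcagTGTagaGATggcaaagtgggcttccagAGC
S100A14, minus strand, chr1:153614951-153614986: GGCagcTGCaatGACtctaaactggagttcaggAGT
The first 7 stretches were found by a search for this pattern, so they match it at all 4 marked codons. S100A10 fills 2 of the 4 and S100A14 fills 1 of the 4, and their stretches were placed by alignment without a gap to S100P and S100A13. S100A10 is known as a member that works without calcium. Across the whole proteins, which have 90 to 105 residues, the 36 pairs of members were 21.1% to 58.4% identical, with a median of 29.6%. The pair with the highest identity was S100A2 and S100A4.

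The 9 genes differed widely in level, from 0.915 to 1064 FPKM with the gene lengths of the table and from 2.95 to 1456 FPKM with GENCODE lengths. Levels here are FPKM, the deposited values scaled to gene length and library size, as the mean ± SD over all 4 samples. S100A11, a partner of annexin A1 also called calgizzarin, was at 1064 ± 12.7 FPKM, and S100A6, also called calcyclin, was at 1009 ± 61.1 FPKM. Their values overlapped, and they ranked 17 and 18 among the 12616 genes tested.
S100A10, the annexin A2 partner that binds plasminogen at the cell surface, followed at 428.0 ± 11.6 FPKM. S100P was at 331.3 ± 38.3 FPKM and S100A4, which binds non-muscle myosin, at 322.3 ± 5.72 FPKM, and these values overlapped too. S100A16 was at 104.4 ± 0.913 FPKM, S100A14 at 34.8 ± 1.03 FPKM and S100A2, a nuclear member that binds p53, at 10.0 ± 1.49 FPKM. S100A13, which takes part in the release of FGF1, was lowest at 0.915 ± 0.141 FPKM, above only 15.5% of the genes tested. The other neighbours in this order did not overlap in any sample. S100P varied most among the 5 genes with the highest levels, with a coefficient of variation of 11.6% over the 4 samples against 1.20% for S100A11. The order depends on the gene length used. The table gives S100P a length of 471 nt, while its GENCODE transcript has 1279 nt, and with GENCODE lengths S100P would be sixth at 122.0 FPKM and S100A6 first at 1456 FPKM.

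**Figure D1:**
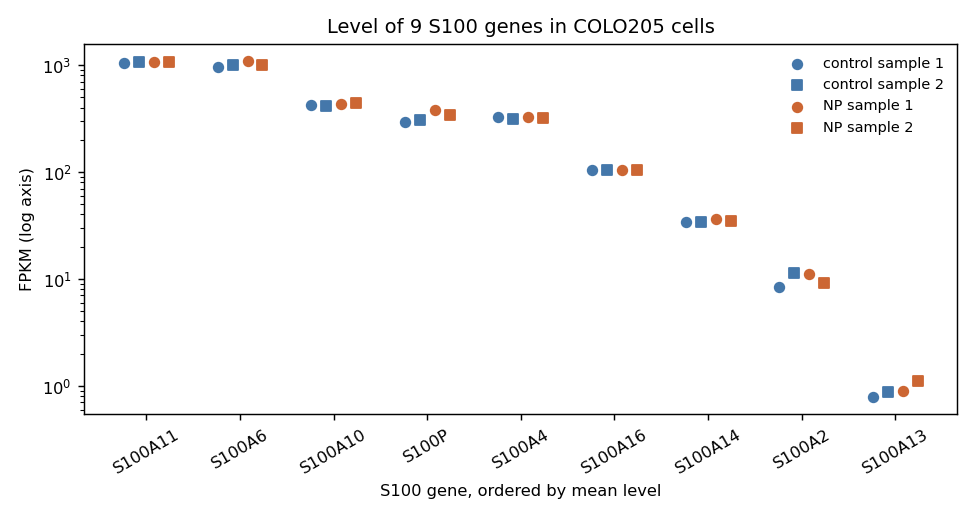
Level of the 9 S100 genes in each of the 4 COLO205 samples, as FPKM on a log axis, with circles and squares for samples 1 and 2 of the control (blue) and NP (orange) groups. The genes run from a mean of 1064 FPKM for S100A11 to 0.915 FPKM for S100A13, and only S100P shows a visible gap between the colours among the abundant genes.

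With NP, S100P and S100A6 rose, and the other 7 genes did not pass the test in either direction (edgeR's quasi-likelihood test, adjusted p under 0.05 over all 12616 genes tested, 2 samples per group). The background was 2.35% of all tested genes higher and 1.7% lower. When the tested genes were ranked by transcript length and cut into 5 classes of equal size, all 9 fell in the shortest class, of which 5.99% were higher. The methods of the study set a cutoff at a log2 fold change larger than 1 and an unadjusted p under 0.05 from DESeq. With p from edgeR's quasi-likelihood test in its place, no S100 gene reached this cutoff, against 0.428% of tested genes. In bulk RNA, a change in some of the cells and a smaller change in all of them cannot be told apart.

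S100P (ENSG00000163993) lies on the plus strand of chromosome 4 from 6693878 to 6697170 and encodes a member first found in placenta that binds ezrin and IQGAP1. Its counts were 2169 and 2266 in control samples 1 and 2 and 3038 and 2170 in NP samples 1 and 2. Scaled to library size as CPM (with TMM factors), these were 138.1 and 145.1 in control and 179.5 and 162.1 in NP samples. Both NP samples lay above both control samples. The NP samples were 10.7% apart, about as far from each other as NP sample 2 was from control sample 2. The mean was 141.6 ± 4.94 CPM in control and 170.8 ± 12.3 CPM in NP samples (SD, n = 2 each). The fitted log2 fold change was 0.27, a rise of 21.0%, with a standard error of 0.044 (edgeR's quasi-likelihood test, adjusted p = 8.69e-06). With each of the 4 samples left out in turn it had an adjusted p under 0.05 in edgeR, at 0.20 without NP replicate 1 and 0.34 without NP replicate 2. Such a fit leaves 1 sample in a group, so the spread comes from the other group alone and the lone sample is assumed to vary like it. In DESeq2, which called 0.904% of tested genes higher, S100P was the 1 S100 gene called (adjusted p = 0.0018). DESeq2 gave no adjusted p for S100A2, S100A13 and S100A14 and so could not call them. In limma on log2(FPKM + 1) S100P did not pass (log2 fold change 0.26, adjusted p = 0.068).

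S100A6 (ENSG00000197956), on the minus strand of chromosome 1 from 153534599 to 153536244, encodes a protein that binds the ubiquitin-ligase adaptor CACYBP and is typical of proliferating cells. It had 917.6 and 969.0 CPM in control samples 1 and 2 and 1067 and 970.0 CPM in NP samples 1 and 2. NP sample 2 was almost level with control sample 2, and in FPKM it was below it, at 997.8 against 998.2. The mean went from 943.3 ± 36.4 to 1018 ± 68.4 CPM (n = 2 each, SD). In edgeR's quasi-likelihood test the log2 fold change was 0.11 with a standard error of 0.030 (adjusted p = 0.017). The fitted rise of 8.05% was smaller than the 9.97% between the NP samples. The call was lost without control replicate 1 (log2 fold change 0.07, adjusted p = 0.45) and without NP replicate 1 (0.04, adjusted p = 0.76), and DESeq2 did not make it at about the same fold change (0.11, standard error 0.078, adjusted p = 0.62). For S100A6, samples of the same group were further apart than counting noise allows, in both groups (exact binomial test, 18 tests over 9 genes and 2 groups, adjusted p = 2.40e-05 for control and 2.17e-15 for NP). The same test passed for S100P in NP samples (adjusted exact p = 0.0018) and for S100A2 in control samples (adjusted exact p = 0.0044), but not for the other 14. Samples of a group were further apart than counting noise over all genes as well (chi-square per gene of 1.94 in control and 1.88 in NP). Counting noise alone would give 1, so some excess spread is not particular to these genes. Whether the spread of S100A6 was large for a gene of its depth was not tested.

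**Figure D2:**
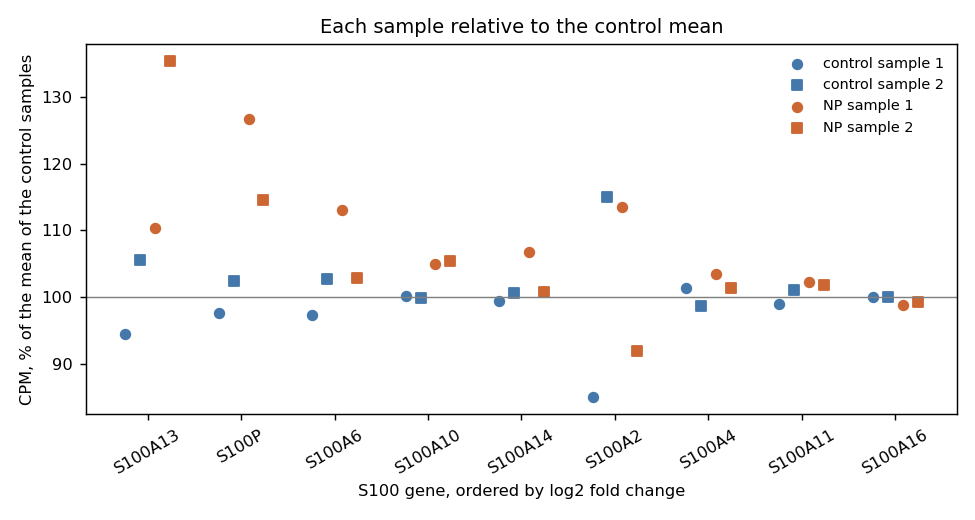
CPM of each sample as a percentage of the control mean of the same gene, for the 9 S100 genes ordered by log2 fold change, with circles and squares for samples 1 and 2 of each group. Among the abundant genes, the NP samples of S100P stand furthest above its control samples, and those of S100A10 stand clear by less. NP sample 2 of S100A6 meets control sample 2, and the samples of S100A2 interleave.

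The other abundant members differed little. S100A10 (ENSG00000197747, chromosome 1, 151982915 to 151993859, minus strand) had 422.9 and 421.8 CPM in control samples and 443.4 and 445.4 CPM in NP samples. The groups did not overlap and each was tight, with a log2 fold change of 0.07 (95% interval 0.01 to 0.13), but it did not pass after adjustment (edgeR, unadjusted p = 0.021, adjusted p = 0.21). S100A11 (ENSG00000163191, chromosome 1, 152032506 to 152047907, minus strand) had 676.6 and 691.9 CPM in control samples and 699.7 and 696.4 CPM in NP samples. Its log2 fold change of 0.03 had a 95% interval from -0.03 to 0.08 (edgeR, adjusted p = 0.70). S100A4 (ENSG00000196154, chromosome 1, 153543613 to 153550136, minus strand) had 305.3 and 297.5 CPM in control samples and 311.9 and 305.6 CPM in NP samples, a log2 fold change of 0.04 (95% interval -0.03 to 0.10). Both intervals overlapped that of S100A6, which ran from 0.05 to 0.17, and the differences between genes were not tested.
S100A16 (ENSG00000188643, chromosome 1, 153606886 to 153613145, minus strand), a widely expressed member, had 178.6 and 178.5 CPM in control samples and 176.5 and 177.2 CPM in NP samples. It was the only one of the 9 with both NP samples below both control samples, by a log2 fold change of -0.01 (95% interval -0.09 to 0.06). S100A14 (ENSG00000189334, chromosome 1, 153614255 to 153616986, minus strand), an epithelial member, had 43.4 and 43.9 CPM in control and 46.6 and 44.0 CPM in NP samples. Its NP sample 2 was level with the control samples, and the log2 fold change was 0.06 (95% interval -0.09 to 0.20).
S100A2 (ENSG00000196754, chromosome 1, 153561108 to 153567890, minus strand) had 12.99 and 17.6 CPM in control and 17.4 and 14.05 CPM in NP samples. The groups interleaved, and its 95% interval ran from -0.20 to 0.30 on the log2 scale. S100A13 (ENSG00000189171, chromosome 1, 153618787 to 153631360, minus strand) had only 27 and 30 counts in control and 34 and 33 counts in NP samples. Its log2 fold change of 0.28 was the highest of the 9 and also the least certain, with a 95% interval from -0.36 to 0.93 (edgeR, adjusted p = 0.76), so a change of the size seen in S100P was not detectable at this depth. In all, 7 of the 9 genes had both NP samples above both control samples in CPM, against 22.5% of all tested genes and 34.9% of the shortest length class. In FPKM it was 5 of the 9, against 21.2% of all tested genes. NP sample 2 of S100A4, at 322.6 FPKM, was then below control sample 1, at 323.7 FPKM, and S100A6 overlapped as described, while S100A14 held by a margin of 44.00 to 43.91 CPM.

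Some of these counts may be uncertain because genes overlap, and the sources used here do not say whether strand was used in counting. The overlaps given are of whole gene spans, introns included, so the counted bases may not be shared. S100A4 shares 2044 bases with S100A3 on the same strand, where use of strand would not separate them. S100A13 shares 5029 bases with the processed transcript AL162258.1 on the same strand and 3435 bases with S100A1 on the opposite strand. S100A6 and S100A11 each overlap an antisense gene of GENCODE, and S100A11 also has 2 processed pseudogenes on chromosome 7, S100A11P1 and S100A11P2. Their part in the values was not tested.

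Short transcripts were read more in NP samples across the transcriptome, and the median of the S100 genes lay at that trend. S100P lay furthest above it, followed by S100A13, whose low counts leave its value uncertain. The shortest of the 5 length classes (207 to 1815 nt, 2521 genes) had a median log2 fold change of 0.06, the longest had -0.03, and all tested genes had 0.00. The median of the 9 S100 genes was 0.06. In the shortest class, the median of log2 CPM centred on the 4 samples was -0.039 and -0.013 in control samples 1 and 2 and 0.032 and 0.026 in NP samples 1 and 2. What makes the samples differ by length was not tested.
The running median over genes of like length was 0.098 at the 673 nt of S100A6, which itself was at 0.11, above 54.4% of those genes. At the 594 nt of S100A11 the running median was 0.10, and the gene lay at 0.03, above 29.97% of its neighbours in length. S100P lay at 0.27 where the running median was 0.06, above 88.8% of genes of like length. S100A13 lay at 0.28 where the running median was 0.098, above 85.0% of such genes, but with a standard error of 0.33. Placed at the 471 nt of the table, S100P was 0.18 above the median of the tested genes nearest in length. Few tested genes were that short, so most of these genes were longer and their median may not hold at 471 nt. A fit that corrects for length, described below, put S100P at 0.14 with this length (edgeR's quasi-likelihood test, adjusted p = 0.055).

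**Figure D3:**
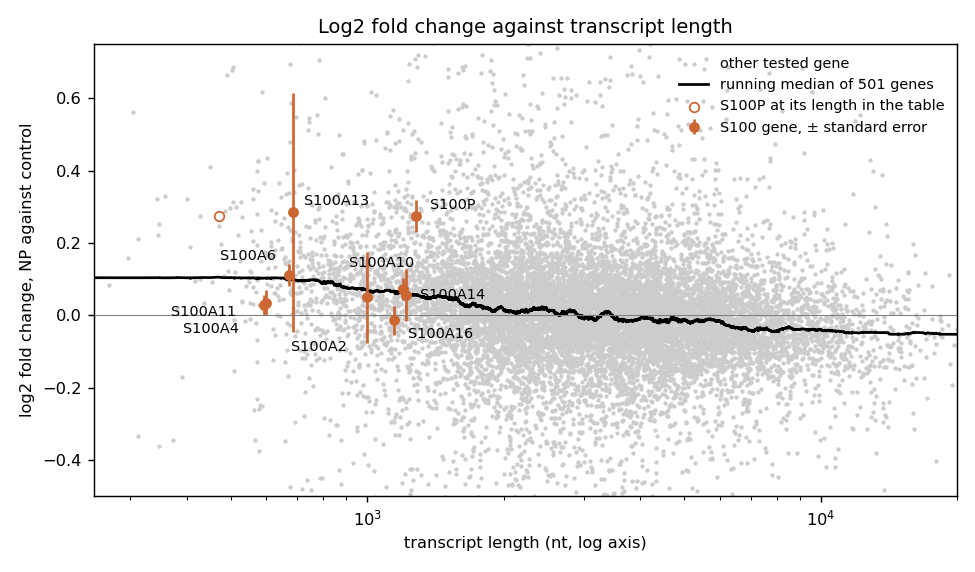
Log2 fold change of NP against control for tested genes (grey) against transcript length on a log axis, with the running median (black line) and the 9 S100 genes with their standard errors (orange), genes beyond the axes not being drawn. The line falls from about 0.10 at the shortest transcripts to -0.05 at the longest, and S100P lies above it at its GENCODE length (filled point) and at its length in the table (open point).

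The test was then repeated with offsets, gene-wise corrections taken from a smooth curve of each sample's counts against transcript length. With these, 1.69% of tested genes were higher and 1.36% lower, and the median of the 9 S100 genes was -0.003. S100P still rose, by 0.22 on the log2 scale with a standard error of 0.042 (edgeR's quasi-likelihood test, adjusted p = 0.00066). S100A6 was at 0.01 (standard error 0.027, adjusted p = 0.95). S100A11 turned to a fall, at -0.09 with a standard error of 0.025 (adjusted p = 0.042), and was the 1 S100 gene called lower. S100A4 was at -0.08 (adjusted p = 0.23) and S100A16 at -0.08 (adjusted p = 0.35), neither past the test.
These corrected calls depended on the length given to a gene, and with a sample left out some missed the threshold. With the gene lengths of the table in place of GENCODE lengths, S100P was at 0.15 (adjusted p = 0.022) and S100A11 at -0.08 (adjusted p = 0.081). With GENCODE lengths for all genes but the table's 471 nt for S100P, S100P was at 0.14 and just missed the threshold (adjusted p = 0.055). With transcript-length offsets it was also lost without NP replicate 1 (0.14, adjusted p = 0.15), and S100A11 missed the threshold without any 1 of the 4 samples (adjusted p = 0.095 to 0.29) although its log2 fold change of -0.08 to -0.09 was about as large as with all of them. The offsets for the lengths of the table, the fit with S100P at 471 nt and the fits that joined offsets with a left-out sample were added after the data were seen.

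**Figure D4:**
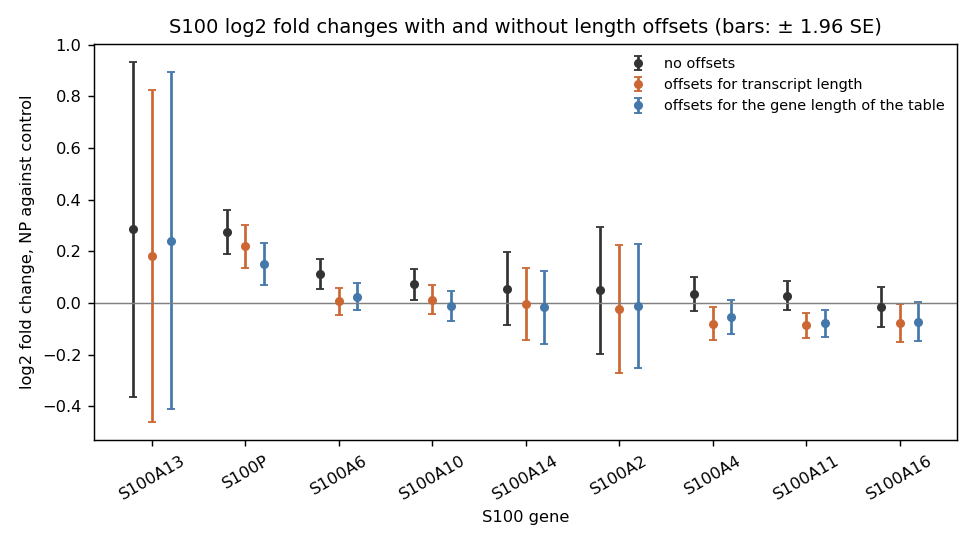
Log2 fold change of NP against control for the 9 S100 genes from edgeR without offsets (black), with offsets for transcript length (orange) and with offsets for the gene length of the table (blue), with bars for 95% intervals. S100P stays above 0 in all 3 fits, S100A6 moves to about 0, and S100A11 moves from 0.03 to below 0.

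As a share of all reads of the 9 genes, S100P took 5.12% and 5.24% in control samples 1 and 2 (Wilson 95% intervals 4.91% to 5.33% and 5.04% to 5.46%). In NP samples 1 and 2 it took 6.10% and 5.75% (5.89% to 6.31% and 5.52% to 5.99%). The intervals of the groups did not overlap, and they cover counting error only. S100A6 took 34.0% and 35.0% in control and 36.2% and 34.4% in NP samples, and these interleaved. S100A11 took 25.1% and 25.0% in control and 23.8% and 24.7% in NP samples, and the Wilson 95% interval of NP sample 2 (24.3% to 25.2%) held both control shares. Its share was lower in both NP samples while its level in CPM was not. Summed over the 9 genes, the level was 2697 and 2767 CPM in control and 2944 and 2817 CPM in NP samples, and the nearest samples of the 2 groups were closer than the control samples were to each other.

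The 12 S100 genes outside the 9 were low or at 0. S100A1, S100A3 and S100A5 had enough counts to be tested, at 1.66 to 10.2 CPM, and none passed the test. Their log2 fold changes were 0.36, -0.30 and 0.19, and each had a 95% interval that held 0. S100A9, an alarmin of myeloid cells, had 1 count in control sample 2 and 1 in NP sample 1, and S100Z had 1 in control sample 2 and 2 in NP sample 1. The other 7, among them S100A8 and S100B, had no count in any sample. Such a 0 does not exclude a low level, taken here as an expected count of up to 3, or 0.177 to 0.224 CPM per sample.

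Annexins bind membranes in a calcium-dependent way, and several carry an S100 protein on their N-terminal tail. Of all tested genes, 2.35% were higher and 1.7% lower. Of the 10 annexin genes tested, 1 rose, 9 did not pass and none fell (median log2 fold change 0.06). The gene that rose was ANXA1, the partner of S100A11 that restrains inflammation, with 155.3 and 165.5 CPM in control and 194.8 and 194.8 CPM in NP samples. The groups were far apart, and the log2 fold change was 0.28 with a standard error of 0.040 (edgeR's quasi-likelihood test, adjusted p = 7.93e-07). It also had an adjusted p under 0.05 with each sample left out (0.23 to 0.33, the spread again coming from the other group alone), in DESeq2 (adjusted p = 8.74e-05) and with transcript-length offsets (0.26, adjusted p = 5.87e-06).
ANXA2, the partner of S100A10, had 1499 and 1520 CPM in control and 1584 and 1547 CPM in NP samples, a log2 fold change of 0.05 (edgeR, adjusted p = 0.29). ANXA5 was at 0.13 (adjusted p = 0.081) and ANXA4 at 0.06 (adjusted p = 0.41).

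Of 18 tested genes of other intracellular partners and ANXA2, 1 fell, 17 did not pass and none rose (median -0.01). The share of all tested genes was 1.7% lower and 2.35% higher. IQGAP1, a scaffold of the cell cortex that binds S100P, had 529.1 and 545.0 CPM in control and 502.9 and 485.6 CPM in NP samples. Both NP samples were lower, at a log2 fold change of -0.12 with a standard error of 0.030 (edgeR's quasi-likelihood test, adjusted p = 0.011). DESeq2 also called it lower (-0.12, adjusted p = 0.036). The call was lost without control replicate 2, without NP replicate 2 (-0.15 to -0.09 over the 4 left-out samples) and with transcript-length offsets (-0.09, adjusted p = 0.085). MYH9, the non-muscle myosin heavy chain that S100A4 binds, was at -0.08 (adjusted p = 0.12), and PPFIBP1, another partner of S100A4, at -0.10 (adjusted p = 0.20). EZR, the cytoskeletal linker bound by S100P, was at -0.02, CACYBP at 0.02, the nuclear S100P-binding protein S100PBP at -0.12 and AHNAK, a giant scaffold bound by S100A10 and ANXA2, at 0.00 (edgeR, adjusted p = 0.60 to 0.98).
None of 6 tested genes of extracellular S100 receptors and the plasminogen axis passed edgeR's test, and none was at an unadjusted p under 0.05 (median 0.05). DESeq2 called none, but it gave no adjusted p for AGER, TLR4 and PLAUR and so could not call them. AGER, the receptor for advanced glycation end products, had 3.65 to 5.60 CPM and TLR4 5.61 to 7.45 CPM over the 4 samples. BSG, a receptor for S100A9, was at -0.06 (edgeR, adjusted p = 0.38) and PLAUR, the urokinase receptor, at 0.05 (adjusted p = 0.85).

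Of 28 tested genes of other EF-hand proteins, 3 rose, 1 fell and 24 did not pass (median 0.01). The share of all tested genes was 2.35% higher and 1.7% lower. The myosin regulatory light chains MYL12A and MYL12B rose with log2 fold changes of 0.23 and 0.14, and CALM2, which encodes calmodulin, rose with 0.12 (edgeR, adjusted p = 0.0045, 0.0092 and 0.025). The actin crosslinker ACTN1 fell, with -0.12 (edgeR, adjusted p = 0.043). None of the 4 passed with transcript-length offsets, where MYL12A was at 0.17, MYL12B at 0.08, CALM2 at 0.07 and ACTN1 at -0.11 (adjusted p = 0.062, 0.22, 0.33 and 0.072). In DESeq2 none passed at nearly unchanged fold changes of 0.23, 0.13, 0.12 and -0.12 in the same order (adjusted p = 0.065 to 0.17). With each sample left out in turn, the log2 fold change was 0.15 to 0.31 for MYL12A and 0.10 to 0.17 for MYL12B. It was 0.09 to 0.15 for CALM2 and -0.15 to -0.09 for ACTN1. The direction was kept throughout, but MYL12A missed the threshold in some of these fits, and MYL12B, CALM2 and ACTN1 in most.

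The genes whose values over the 4 samples were most like those of S100P, by Euclidean distance of centred log2 CPM among 10003 genes averaging at least 100 counts, were TUSC1 at 0.018 and ITPKA at 0.021. TUSC1 had 6.87 and 7.30 CPM in control and 9.22 and 8.29 CPM in NP samples. ITPKA, an inositol trisphosphate kinase that binds actin, had 588.4 and 609.3 CPM in control and 751.2 and 678.5 CPM in NP samples. For S100A6 the nearest genes were SMAD3 and TIMM23, both at 0.014. These genes were picked for their likeness to S100P or S100A6, so their own order over the samples follows from the choice and no test is given.

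Reads counted per sample ranged from 13401691 to 16998129, with NP sample 2 the shallowest, and TMM factors from 0.9963 to 1.0037. All 13 colon epithelial markers were expressed and none passed the test. With transcript-length offsets, KRT19 (-0.12, adjusted p = 0.0023 in edgeR) and KRT8 (-0.06, adjusted p = 0.046) were lower. EPCAM was at 1053 to 1096 CPM and KRT8 was at 3190 to 3328 CPM, while KRT20, CDX1 and CDX2 were low, at 1.46 to 4.46 CPM. Of 10 leukocyte markers, LYZ, which intestinal cells also express, rose by 0.11 (edgeR, adjusted p = 0.047). This call was lost with transcript-length offsets in edgeR (adjusted p = 0.33) and in DESeq2 (adjusted p = 0.18). It was also lost in most fits that left out a sample (log2 fold change 0.07 to 0.14). The other tested marker did not pass, and PTPRC, CD3E and FCGR3A had no counts. The 10 leukocyte markers summed to 335.9 and 329.9 CPM in control and 367.2 and 349.3 CPM in NP samples, nearly all of it LYZ. The 10 fibroblast and endothelial markers summed to 5.83 to 6.30 CPM per sample, with COL1A2, COL3A1 and KDR at 0.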

How the data were processed

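The data are RNA sequencing of 2 control and 2 NP samples. The authors deposited raw counts and FPKM per gene. HISAT2, HTSeq and the build GRCh38 come from the submitters' processing notes, with versions, annotation and use of strand not given in the sources used here. FPKM as deposited equal counts divided by the gene length of the table and the summed counts. The methods speak of 3 parallel experiments, and 2 samples per group were analysed here.

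Counts of the 12616 genes kept by filterByExpr (minimum count 10) were scaled with TMM and tested with edgeR 4.0.16 (R 4.3.3) by its quasi-likelihood test on group alone, with Benjamini-Hochberg adjustment over all of them. The common dispersion was 0.0007043. The standard error is the fold change over the square root of F. Intervals are at 95% by the normal distribution, so they are somewhat narrower than the F test implies. Offsets were smoothed on genes averaging at least 30 counts. Transcript lengths and loop sequences came from GENCODE release 29 (a transcript for 99.5% of gene identifiers). Gene coordinates are those of the table.

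Alternatives were DESeq2 1.42.0, limma 3.58.1 on log2(FPKM + 1) and log2(FPKM + 0.1), edgeR's exact test, RLE factors, library size only, other filters, offsets for length and GC content, a replicate block and each sample left out. The steps were tested on simulated counts. Members and lists were chosen with earlier results of these data known. Named were the 9 genes, every other S100 gene with a count, ANXA2, CACYBP, S100PBP, EZR, AHNAK and MYH9, up to 4 genes of smallest p per list, and the 2 genes nearest in pattern to each S100 gene past the test. Of these, 1 gene that the rule takes from a list is not reported here. S100A8 and S100B, and the markers given by level, were named as examples after their values were seen. The labels do not say that replicate numbers mark a shared culture or day, and the deviations of same-numbered samples correlated at -0.009 over genes, so samples were treated as unpaired.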

Additional observations from a re-analysis of the deposited data

How the results depend on the processing

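The count of S100 genes higher was 2. It was 1 with offsets for transcript length, for the gene length of the table, for GC content and transcript length, and in DESeq2, and 0 with S100P at its length in the table, in limma on log2(FPKM + 1) with and without a filter and on log2(FPKM + 0.1), and at the fold cutoff. With 1 sample left out it was 1 to 2, and 0 to 1 with offsets as well (0 without NP replicate 1). The count of S100 genes lower was 0, and 1 with each offset that includes transcript length over 4 samples. S100A11 turned to -0.087 with these offsets, also with S100P at its length in the table, and to -0.089 with GC content added. S100A6 turned to -0.010 without control replicate 1 and -0.059 without NP replicate 1, both with length offsets.

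With a replicate block the same 2 S100 genes passed (S100P at 0.27, S100A6 at 0.11, adjusted p = 0.0036 from edgeR). A replicate block with offsets for transcript length gave 1 higher and 1 lower, with S100A11 at -0.087. The block moved the calls over all genes from 512 to 652.

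Of the genes in the lists around the family, 7 passed. This became 2, 4 and 2 with offsets for transcript length, with GC content added and with S100P at its length in the table, 3 in DESeq2, 2, 2 and 0 in limma (pseudocounts 1 and 0.1, then no filter), 0 at the fold cutoff and 24 at an unadjusted p under 0.05. It was 3 to 5 with 1 sample left out, and 3, 4, 2 and 2 with offsets too, without control replicates 1 and 2 and NP replicates 1 and 2. Over all genes, 512 passed, against 190 in DESeq2, 61, 71 and 0 in limma, 54 at the fold cutoff, 1910 at an unadjusted p under 0.05, 171 to 387 with 1 sample left out, and 217, 306 and 196 with offsets when control replicate 1, then control replicate 2, then NP replicate 1 was left out.

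With GENCODE lengths, FPKM were 1163 for S100A11, 1456 for S100A6, 360.4 for S100A10, 122.0 for S100P, 508.2 for S100A4, 155.0 for S100A16, 36.5 for S100A14, 15.5 for S100A2 and 2.95 for S100A13, by construction of the unit. For the other changes the cause was not tested. Offsets for the gene length of the table, S100P at that length, and leaving out samples with offsets were chosen after seeing the data. Low counts limit S100A13, and 2 samples per group limit all results.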

Other observations

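The deposited table places 111 genes outside the S100 family within 1 Mb of the S100 genes on chromosome 1, from 150982915 to 154631360 of GRCh38, and 57 of them were tested. Of these 57, 1 rose, 56 did not pass and none fell, against 2.35% of all tested genes higher and 1.7% lower. Their median log2 fold change was 0.01. The gene that rose was RPS27, which encodes a small-subunit ribosomal protein, with 402.4 and 432.9 CPM in control and 539.2 and 508.7 CPM in NP samples, a log2 fold change of 0.33 (edgeR's quasi-likelihood test, adjusted p = 1.40e-11). It was at 0.17 with offsets for transcript length (adjusted p = 8.31e-05). MRPL9, a mitochondrial ribosomal protein, was at 0.27 (adjusted p = 0.065) and DENND4B at -0.13 (adjusted p = 0.15), neither past the test in edgeR.

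In RefSeq (GRCh38.p14), 13 windows of the 250 bases before a start belong to the 9 S100 genes, and 5 motifs were searched on both strands. The letters TATAAA of a TATA box were in 3 of the 13 windows, 1 each of S100P, S100A4 and S100A13, and in 10.7% of all 35116 windows. The GC box GGGCGG was in 5 of the 13, 1 each of S100A6, S100A10, S100A11, S100A13 and S100A16, and in 42.6% of all windows. The AP-1 site TGANTCA was in 1 window, of S100A2 (6.57% of all windows) and TGACNNNGC, the core of the antioxidant response element, in 2, of S100A13 and S100A14 (10.9%). The palindromic estrogen response element was in none of the 13 windows and in 0.0399% of all. A match describes the letters only.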
